A study of Mus musculus with 6 samples.

Results

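The genes described here are 33 genes of the oligodendrocyte lineage and of myelin, read in astrocytes sorted from the brains of hyperglycemic and control mice. They were chosen by name from the deposited gene table and were kept when they had a read count above 0 in all 6 samples. All 33 met that condition, among 22337 genes that met it out of 45777 listed. Of the 33, 5 mark precursors or newly formed oligodendrocytes, 3 are transcription factors used throughout the lineage, and 25 belong to mature, myelinating cells.

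Oligodendrocytes wrap axons of the central nervous system in myelin, a stack of lipid-rich membrane. They arise from precursors that carry the growth factor receptor Pdgfra, under transcription factors such as Olig2, Sox10 and Myrf, and then switch on genes for the structural proteins and lipids of the sheath. Myelin debris and detached oligodendrocyte processes are a known companion of cells dissociated from adult brain, and astrocytes themselves use some genes of this list.

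The study asked what hyperglycemia does to the transcriptome of astrocytes. Male mice on a C57BL/6 background carried Aldh1l1cre/ERT2, a tamoxifen-dependent Cre recombinase driven from the astrocyte gene Aldh1l1, together with the floxed reporter tdTomato fl/fl. All animals, in both groups, received tamoxifen on 5 consecutive days. At 8 weeks of age they were given 1 injection of streptozotocin (STZ), which destroys pancreatic beta cells, or the citrate buffer alone (vehicle), and STZ-treated animals were used when their blood glucose had risen. tdTomato-positive cells were sorted after enzymatic dissociation and a step that removes debris, and each sample pooled the cells of 3 brains, which gave 3 vehicle samples (vehicle 1 to 3) and 3 STZ samples (STZ 1 to 3) of bulk RNA sequencing. Values below are either TPM, the authors' length-normalized level, used wherever genes are compared with each other, or normalized CPM, read counts scaled to a common library total after adjustment of the libraries by TMM, used wherever samples are compared.

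The libraries held 52529048 to 58749115 counts, so that 3 counts stood for 0.0511 to 0.0571 CPM. The least counted of the 33 genes, Gpr17, had 17 counts in its lowest sample. Astrocyte markers were high in every sample, as 10 of them summed to 16502 to 20091 TPM in vehicle and 16721 to 18096 TPM in STZ samples, and Aldh1l1 itself stood at 318 to 369 TPM in vehicle and 262 to 308 TPM in STZ samples. At an unadjusted p under 0.05 in edgeR, 3 of the 10 were lower in STZ (5.65% of all tested genes were). These were Aldh1l1 (log2 fold change -0.22), Aqp4 (-0.48) and S1pr1 (-0.39), all without overlap between groups (9.85% of all tested genes were lower without overlap). Slc1a2 was also lower without overlap, at a larger p (-0.11). At that threshold 1 was higher (5.63% of all), Gjb6 (0.27), also without overlap (8.64% of all). S1pr1 and Gjb6 were named after their values were seen. The 33 oligodendrocyte genes together made up 0.335% of all TPM in vehicle 1, 0.425% in STZ 1 and 0.214% to 0.248% in the other 4 samples. Vehicle 1 also stood apart in other lists, with the lowest choroid plexus sum (8 genes, 10631 TPM against 15976 to 29917 elsewhere) and the highest microglial sum (8 genes, 933 TPM against 609 to 842). Ttr alone made up 10066 TPM of the choroid plexus sum in vehicle 1. By normalized CPM 4 of these 8 genes were lowest there, and the share of all tested genes lowest there was not counted. Of the 8 microglial markers, 6 were highest in vehicle 1 (22.8% of all tested genes were). Because of these differences, values without vehicle 1 are given beside several results, and for every gene in the plot of fold changes. In bulk samples, fewer cells of a type and less RNA per cell cannot be told apart.

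The promoters of 4 genes are shown because these genes behaved differently across the 6 samples although all are switched on during myelination. Mobp was highest in STZ 1, Mog and Opalin were highest in vehicle 1, and Cnp was nearly level between these libraries. They were picked after their values were seen. Each run is the 250 bases before a RefSeq transcript's start site on GRCm38.p6, written 5′ to 3′ along the gene's strand. Capitals mark matches, on either strand, to the SOX core ACAANG, the kind of site that Sox10 binds, and to the Myrf core CTGGNAC. The windows are chr9:120149492-120149741 (plus strand) for Mobp, chr17:37023399-37023648 (minus) for Mog, chr19:41077114-41077363 (minus) for Opalin and chr11:100574689-100574938 (plus) for Cnp. The start site used for Cnp lies within the gene as annotated, whose first base is at 100574909, so that the end of that window is inside the gene.
Mobp: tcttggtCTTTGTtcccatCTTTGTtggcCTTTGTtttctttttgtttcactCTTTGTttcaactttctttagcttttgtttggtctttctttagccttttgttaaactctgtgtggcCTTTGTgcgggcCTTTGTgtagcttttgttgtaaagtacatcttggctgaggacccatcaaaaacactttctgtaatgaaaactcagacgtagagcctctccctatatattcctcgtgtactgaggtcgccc
Mog: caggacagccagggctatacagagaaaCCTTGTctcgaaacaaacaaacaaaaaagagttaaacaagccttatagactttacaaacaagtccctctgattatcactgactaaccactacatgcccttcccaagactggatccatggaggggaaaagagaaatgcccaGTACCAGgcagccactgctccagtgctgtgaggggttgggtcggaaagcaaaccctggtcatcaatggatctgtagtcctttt
Opalin: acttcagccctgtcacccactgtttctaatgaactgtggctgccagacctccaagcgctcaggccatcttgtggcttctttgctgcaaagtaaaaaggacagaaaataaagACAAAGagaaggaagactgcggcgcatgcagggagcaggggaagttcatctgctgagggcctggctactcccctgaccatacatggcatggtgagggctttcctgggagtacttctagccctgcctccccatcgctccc
Cnp: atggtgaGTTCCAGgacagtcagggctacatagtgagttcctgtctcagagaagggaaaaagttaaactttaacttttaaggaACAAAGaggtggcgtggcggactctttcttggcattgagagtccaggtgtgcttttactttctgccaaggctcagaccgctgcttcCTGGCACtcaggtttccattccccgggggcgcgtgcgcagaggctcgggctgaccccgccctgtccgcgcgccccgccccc
The Mobp window held 6 SOX matches, all on the opposite strand, at 243, 231, 221, 198, 132 and 120 bases before the start, and no Myrf match. Mog held 1 SOX match at 223 and 1 Myrf match at 83 bases, Opalin 1 SOX match at 139 bases, and Cnp 1 SOX match at 167 and Myrf matches at 243 and 81 bases. Promoter windows were at hand for 25 of the 33 genes. The SOX core occurred in 13 of these 25 (52%) against 36.3% of 32851 promoters of the same table, and the Myrf core in 9 (36%) against 16.1%. The E-box CANNTG, the kind of site that Olig2 binds, occurred in 16 (64%) against 66.2%. These are matches of letters in short windows and were not tested for binding.

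Levels of the 33 genes ran from 0.314 to 947 in mean TPM. Car2, the carbonic anhydrase that both glial types use, was the highest, with a mean of 947 TPM over the 6 samples. Cnp, the cyclic nucleotide phosphodiesterase of non-compact myelin, followed with 424 TPM, then Mbp, the basic protein that compacts the sheath, with 410.2 TPM. The lineage factors Olig1 (227 TPM) and Olig2 (80.8 TPM) ranked above most myelin genes, whereas their partner Sox10 was at 6.73 TPM. At the low end stood the precursor genes Enpp6 (1.58 TPM), Pdgfra (1.85 TPM) and Gpr17 (0.314 TPM), with Myrf, the master regulator of myelin genes, at 1.5 TPM and Nkain2 at 0.473 TPM. Of the 32 pairs of neighbours in this order, 29 had overlapping ranges over the 6 samples. The exceptions were Car2 over Cnp, Olig1 over Nkx6-2 and Myrf over Nkain2.

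**Figure D1:**
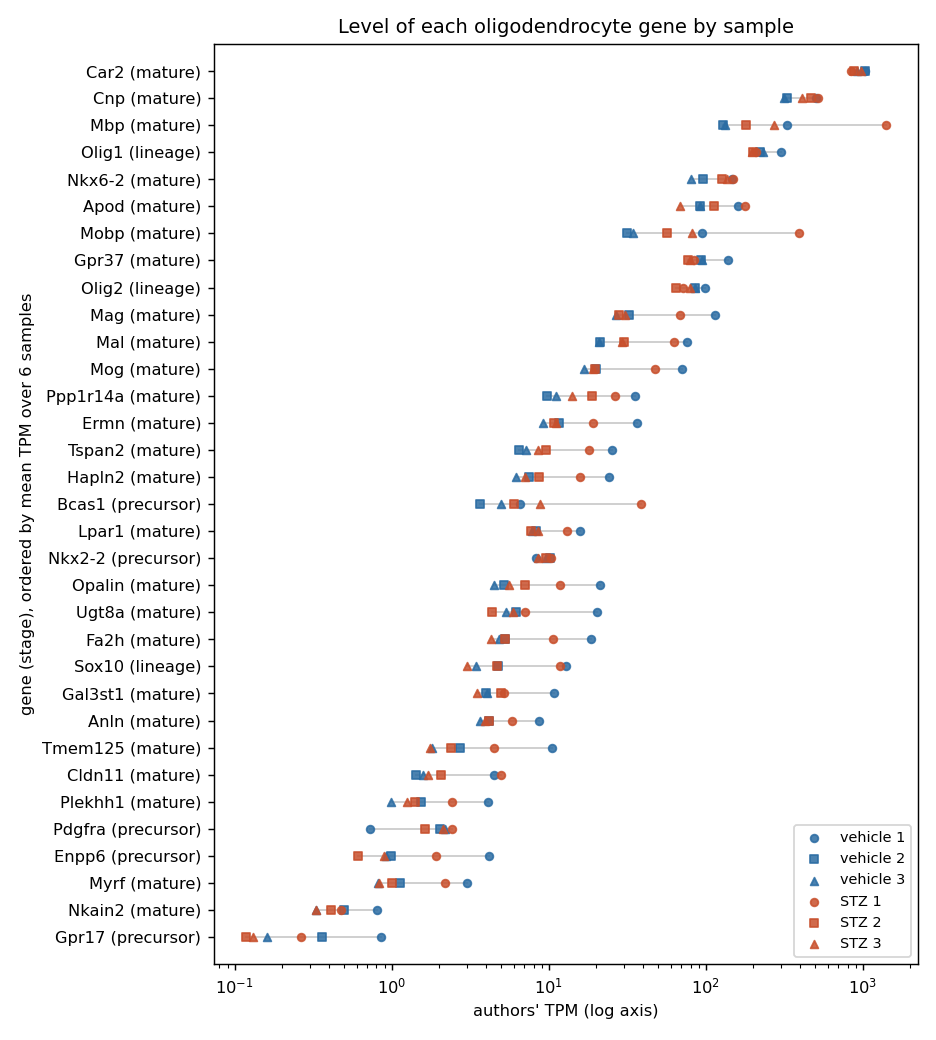
Level of each of the 33 genes in each sample, in the authors' TPM on a log axis, ordered by the mean of the 6 samples; colours give the group, shapes the replicate, grey lines the range. Car2, Cnp and Mbp lie at the top and Gpr17 at the bottom, and for most genes between these the blue circle (vehicle 1) and the red circle (STZ 1) lie to the right of the other 4 samples.

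The 6 samples differed along a pattern that crossed the treatment. Of the 33 genes, 23 were highest in vehicle 1 (22.8% of all tested genes were) and 8 were highest in STZ 1 (18.9% of all tested genes). Vehicle 1 and STZ 1 were the leading pair for 25 genes, including all 18 mature genes not known from other brain cells. The share of all tested genes with this leading pair was not counted. The level in vehicle 1 over the mean of vehicle 2 and 3 had a median of 2.85 across the 33 genes (range 0.345 to 4.17), against 0.994 across all tested genes. STZ 1 over the mean of STZ 2 and 3 had a median of 1.81 (range 0.888 to 5.87), against 0.997. The remaining samples, STZ 2 and 3 over vehicle 2 and 3, had a median ratio of 1.03. The source of the difference between pools of one group, whether it lay in cells, processes or free RNA taken along, was not tested.

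**Figure D2:**
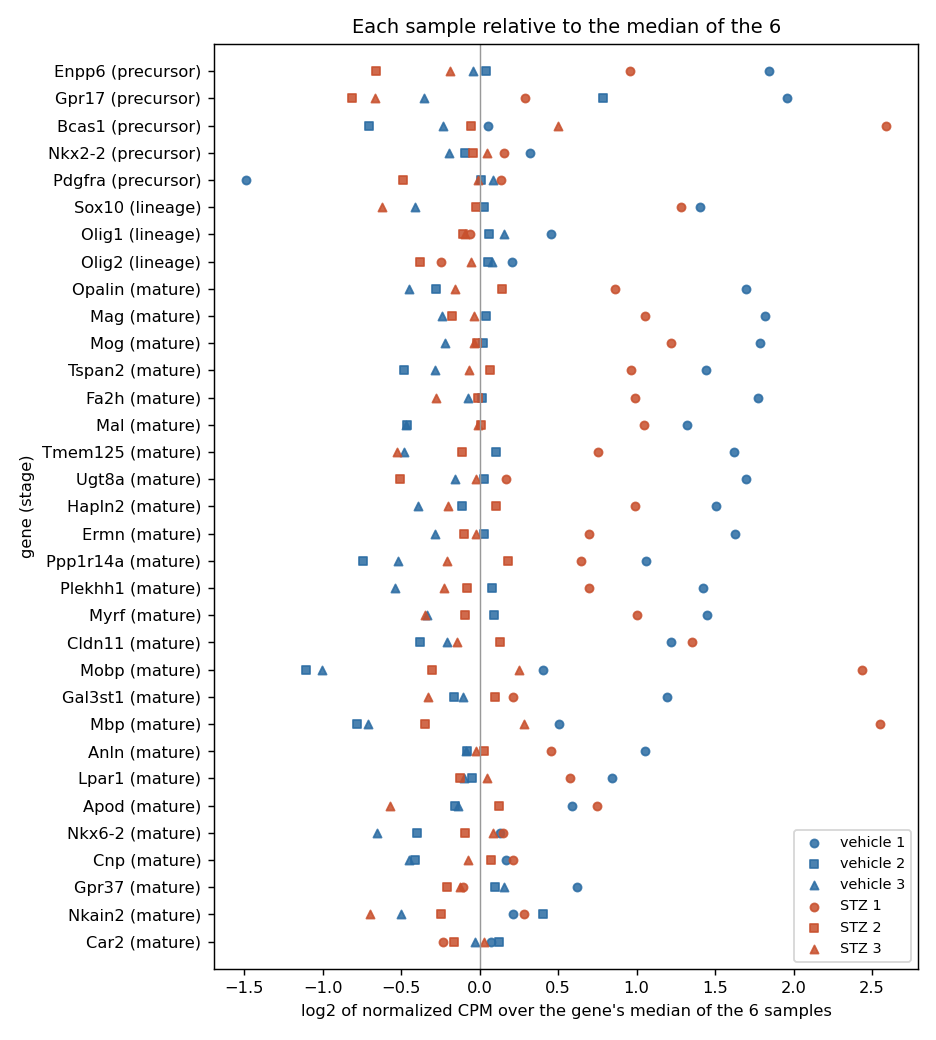
Normalized CPM of each sample over the gene's own median of the 6 samples, on a log2 scale (0 is the median), by stage. Vehicle 1 (blue circles) lies farthest right for 23 genes and STZ 1 (red circles) for 8, with Mbp, Mobp and Bcas1 standing out in STZ 1 and Pdgfra lowest in vehicle 1.

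Among the precursor genes, each followed a course of its own. Pdgfra (receptor for platelet-derived growth factor, also used by vascular fibroblasts) stood at 2.16, 6.11 and 6.44 normalized CPM in vehicle 1, 2 and 3 and at 6.68, 4.33 and 6.04 in STZ 1, 2 and 3. It was lowest in vehicle 1, as were 6 of the 8 perivascular fibroblast markers, Pdgfra itself included. Dcn was among these (2.54 against 5.34 to 12.4 normalized CPM in the other 5 samples). The share of all tested genes that were lowest in vehicle 1 was not counted. The marker Col1a1 was instead highest in vehicle 1 (15.7 against 10.1 to 13.6). Gpr17, a receptor of committed precursors that shuts off before myelination, was at 2.0, 0.886 and 0.401 in vehicle and 0.627, 0.292 and 0.323 in STZ samples. It ran opposite to Pdgfra among the vehicle samples only. Among the STZ samples both genes were highest in STZ 1 and lowest in STZ 2. The locus of Gpr17 overlaps that of Lims2, and the library kit does not mark strand, so that reads of the pair could be mixed. Enpp6, a choline phosphodiesterase of newly formed oligodendrocytes, was at 8.0, 2.29 and 2.16 in vehicle and 4.34, 1.41 and 1.96 in STZ samples, and thus followed the mature genes in its order of samples. Nkx2-2, a homeodomain factor at the start of differentiation, was nearly level at 16.1, 12.1 and 11.2 (vehicle) and 14.3, 12.5 and 13.3 (STZ). It overlaps 2 non-coding transcripts, and its TPM gave another order, with vehicle 1 lowest at 8.31 and STZ 1 highest at 10.4. None of the 5 passed the test between groups. Their log2 fold changes ran from -1.39 for Gpr17 (edgeR adjusted p = 0.445) to 1.75 for Bcas1, with a median of 0.03. Without vehicle 1 the log2 fold change of Gpr17 was -0.63.

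Of the lineage factors, Olig1 and Olig2 separated the groups by a small margin and Sox10 did not. Olig1 was at 294, 224 and 239 normalized CPM in vehicle and 205, 199 and 201 in STZ samples. Olig2 was at 108, 96.9 and 98.7 in vehicle and 78.6, 71.9 and 90.0 in STZ samples. For both genes every STZ sample lay below every vehicle sample. The log2 fold change of STZ over vehicle was -0.32 (standard error 0.11) for Olig1 (edgeR adjusted p = 0.35) and -0.33 (standard error 0.10) for Olig2 (edgeR adjusted p = 0.311), so neither passed the threshold. Without vehicle 1 the log2 fold changes were -0.20 for Olig1 and -0.29 for Olig2. Of 10 astrocyte markers, 6 were lower and 4 higher in STZ samples. Aldh1l1 and Aqp4 were lower without overlap, with log2 fold changes of -0.22 and -0.48, and Gjb6 was higher without overlap (0.27). The part of astrocyte markers in these values was not tested. Olig1 and Olig2 are also used by astrocytes or their progenitors, and their lowest and highest samples were 1.48-fold (Olig1) and 1.5-fold (Olig2) apart. Sox10, which astrocytes lack, spread 4.07-fold. It was at 15.6, 5.99 and 4.43 in vehicle and 14.3, 5.79 and 3.83 in STZ samples, high in replicate 1 of each group, and its log2 fold change was -0.12 (standard error 0.60).

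The transcription factors of mature cells were split in the same manner. Myrf stood at 7.78, 3.03 and 2.25 normalized CPM in vehicle and 5.69, 2.66 and 2.23 in STZ samples, in step with Sox10. Nkx6-2 (NKX6.2, which shapes the axon-myelin contact) was at 123, 84.9 and 71.4 in vehicle and 125, 105 and 119 in STZ samples. Vehicle 1 alone kept the groups of Nkx6-2 from separating. STZ over vehicle gave 0.32 (standard error 0.19) on the log2 scale with all samples and 0.57 without vehicle 1 (edgeR adjusted p = 0.293, the smallest of the 33 genes in that fit). Nkx6-2 overlaps Inpp5a, which averaged 51.7 normalized CPM against 105 for Nkx6-2.

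The structural proteins of myelin held the widest differences between samples. Mog, a glycoprotein on the outer face of the sheath, was at 54.1, 15.9 and 13.5 normalized CPM in vehicle and 36.5, 15.5 and 15.3 in STZ samples. Mag, the glycoprotein that faces the axon, was at 129, 37.5 and 30.9 (vehicle) and 75.9, 32.3 and 35.6 (STZ). Opalin, a membrane protein of late oligodendrocytes, was at 22.2, 5.65 and 5.03 (vehicle) and 12.4, 7.58 and 6.14 (STZ). In these 3 genes vehicle 1 was highest and STZ 1 second, while vehicle 2, vehicle 3, STZ 2 and STZ 3 lay well below both, irrespective of treatment. Mal, a raft protein that sorts myelin cargo, was at 95, 27.5 and 27.4 (vehicle) and 78.4, 38.2 and 37.8 (STZ). Tspan2, a tetraspanin, was at 48.3, 12.7 and 14.6 (vehicle) and 34.6, 18.6 and 17 (STZ). Cldn11, the claudin that seals myelin layers, was at 3.8, 1.25 and 1.41 (vehicle) and 4.17, 1.79 and 1.48 (STZ). For these, too, replicate 1 of both groups was highest, and in addition STZ 2 and STZ 3 lay above vehicle 2 and vehicle 3. None of these 6 passed the test, and their log2 fold changes with all samples lay between -0.46 (Mag) and 0.20 (Cldn11). Without vehicle 1 all 6 were higher in STZ, from 0.48 (Mag) to 0.90 (Mal).

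Cnp had a high and even level. It was at 556, 371 and 362 normalized CPM in vehicle and 573, 519 and 470.0 in STZ samples, so that the 3 STZ samples lay above vehicle 2 and 3 but not clear of vehicle 1. For Cnp the log2 fold change came to 0.28 (standard error 0.17) with all samples (edgeR adjusted p = 0.574) and 0.50 without vehicle 1 (edgeR adjusted p = 0.296). Cnp shares part of its locus with Dnajc7, which averaged 123 normalized CPM against 475 for Cnp.

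Mbp, Mobp and Bcas1 stood apart from the rest of the list through 1 STZ library. Mbp (NCBI gene 17196) was at 393, 160.5 and 169 normalized CPM in vehicle and 1620.4, 217 and 336 in STZ samples. Mobp (17433), a small protein of compact myelin, was at 119, 41.9 and 45 (vehicle) and 488, 73.2 and 107 (STZ). Bcas1 (76960), a protein of freshly myelinating cells, was at 8.47, 4.99 and 6.93 (vehicle) and 49.1, 7.83 and 11.5 (STZ). STZ 1 exceeded the next highest sample 4.13-fold for Mbp, 4.10-fold for Mobp and 4.26-fold for Bcas1. In the genes Mog, Mag and Opalin, by contrast, STZ 1 lay below vehicle 1. The mRNAs of Mbp and Mobp are known to be carried into oligodendrocyte processes and translated there. The groups overlapped in all 3 genes, since vehicle 1 reached above STZ 2 for each. Log2 fold changes were 1.59 (standard error 0.75) for Mbp (edgeR adjusted p = 0.476), 1.70 (standard error 0.75) for Mobp (edgeR adjusted p = 0.455) and 1.75 (standard error 0.65) for Bcas1 (edgeR adjusted p = 0.398). Without STZ 1 they were 0.20, 0.39 and 0.51, and without vehicle 1 they were 2.13, 2.35 and 1.93. STZ 2 and 3 over vehicle 2 and 3 gave ratios of 1.68, 2.08 and 1.63, in the same direction but smaller.

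**Figure D3:**
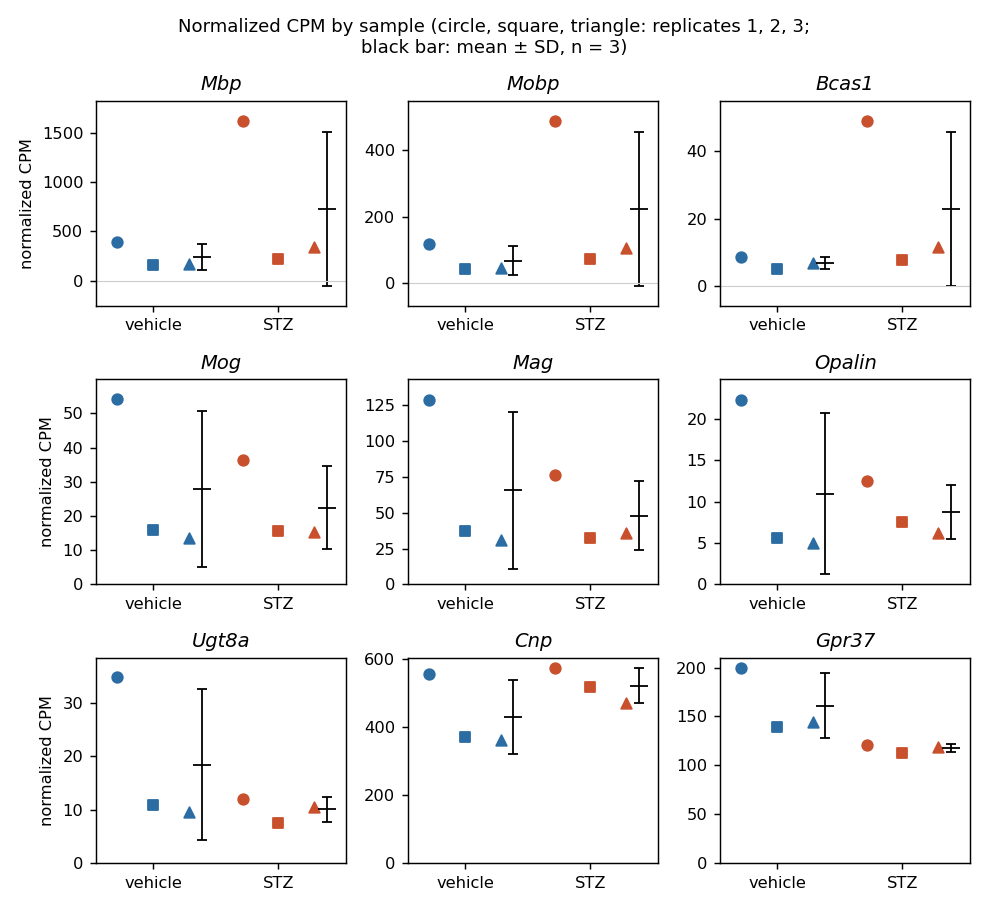
Normalized CPM of 9 genes by sample on linear axes that differ between panels; circles, squares and triangles are replicates 1, 2 and 3, and black bars give the mean ± SD (n = 3 pools per group). STZ 1 reaches 1620.4 for Mbp, 488 for Mobp and 49.1 for Bcas1, vehicle 1 is highest for Mog, Mag, Opalin and Ugt8a, and the groups separate only for Gpr37 among the 9.

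Of the genes of the cytoskeleton and of junctions, all 5 were highest in vehicle 1 with STZ 1 second. Ermn (ermin, an actin-binding protein) was at 59.6, 19.6 and 15.8 normalized CPM in vehicle and 31.2, 18 and 18.9 in STZ samples. Hapln2, a link protein of the nodes of Ranvier, was at 31.2, 10.2 and 8.34 (vehicle) and 21.8, 11.8 and 9.55 (STZ). Anln (anillin, an actin scaffold also used in cell division) had the narrowest spread of the 5, at 20.3, 9.29 and 9.22 (vehicle) and 13.4, 9.98 and 9.63 (STZ). Other genes of dividing cells were lowest in vehicle 1, as for Mki67 (5.87 against 9.60 to 15.2 in the others), so that Anln did not follow them. Ppp1r14a, an inhibitor of myosin phosphatase, was at 8.47, 2.43 and 2.83 (vehicle) and 6.35, 4.6 and 3.52 (STZ), and Plekhh1 at 11.7, 4.62 and 3.02 (vehicle) and 7.09, 4.14 and 3.74 (STZ). Their log2 fold changes ran from -0.48 (Ermn) to 0.08 (Ppp1r14a), and none passed the test. Anln overlaps 9530077C05Rik and Plekhh1 overlaps Pigh, both counted more often than the gene itself.

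The enzymes of myelin lipids were highest in vehicle 1. Ugt8a, which makes galactosylceramide, the main glycolipid of myelin, was at 34.7, 10.9 and 9.6 normalized CPM in vehicle and 12, 7.54 and 10.5 in STZ samples. Fa2h, which hydroxylates the fatty acids of these lipids, was at 20.6, 6.09 and 5.74 (vehicle) and 12, 5.98 and 4.97 (STZ). Gal3st1, which adds the sulfate that turns galactosylceramide into sulfatide, was at 8.99, 3.51 and 3.65 (vehicle) and 4.55, 4.21 and 3.13 (STZ). Vehicle 1 exceeded the next highest sample 2.89-fold for Ugt8a, 1.72-fold for Fa2h and 1.98-fold for Gal3st1. STZ 1 lay 1.33-fold over the mean of STZ 2 and 3 for Ugt8a, 2.19-fold for Fa2h and 1.24-fold for Gal3st1. Log2 fold changes were -0.88 (standard error 0.48) for Ugt8a, -0.50 (standard error 0.55) for Fa2h and -0.44 (standard error 0.39) for Gal3st1, with edgeR adjusted p-values of 0.53, 0.766 and 0.695. Without vehicle 1 they were -0.04, 0.37 and 0.14.

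Among the receptors, Gpr37 was the third gene whose groups did not overlap. Gpr37, an orphan receptor that restrains differentiation and is also made by astrocytes, was at 199, 139 and 145 normalized CPM in vehicle and 121, 113 and 119 in STZ samples. STZ over vehicle gave -0.45 (standard error 0.14) on the log2 scale (edgeR adjusted p = 0.326, DESeq2 adjusted p = 0.0956), and -0.27 without vehicle 1. It, too, lay lower in STZ as did the astrocyte markers Aldh1l1, Aqp4 and S1pr1, while the astrocyte marker Gjb6 lay higher without overlap (0.27). The part of these markers was not tested. Lpar1, a receptor for lysophosphatidic acid, was at 24.2, 13.1 and 12.6 (vehicle) and 20.2, 12.4 and 14 (STZ), and its log2 fold change was -0.10 (standard error 0.29). Car2 was even at 896, 928 and 837 (vehicle) and 725, 763 and 869.9 (STZ), and its log2 fold change was -0.17 (standard error 0.10), or -0.17 without vehicle 1. Apod, a lipid carrier also made by vascular fibroblasts, was at 148, 88.6 and 89.6 (vehicle) and 166, 108 and 66.2 (STZ), and its log2 fold change was 0.06 (standard error 0.33). The membrane proteins Tmem125 (vehicle 8.15, 2.85 and 1.9, STZ 4.48, 2.46 and 1.84) and Nkain2 (vehicle 2.14, 2.45 and 1.31, STZ 2.26, 1.56 and 1.14) were low throughout, and only Tmem125 had its highest value in vehicle 1.

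**Figure D4:**
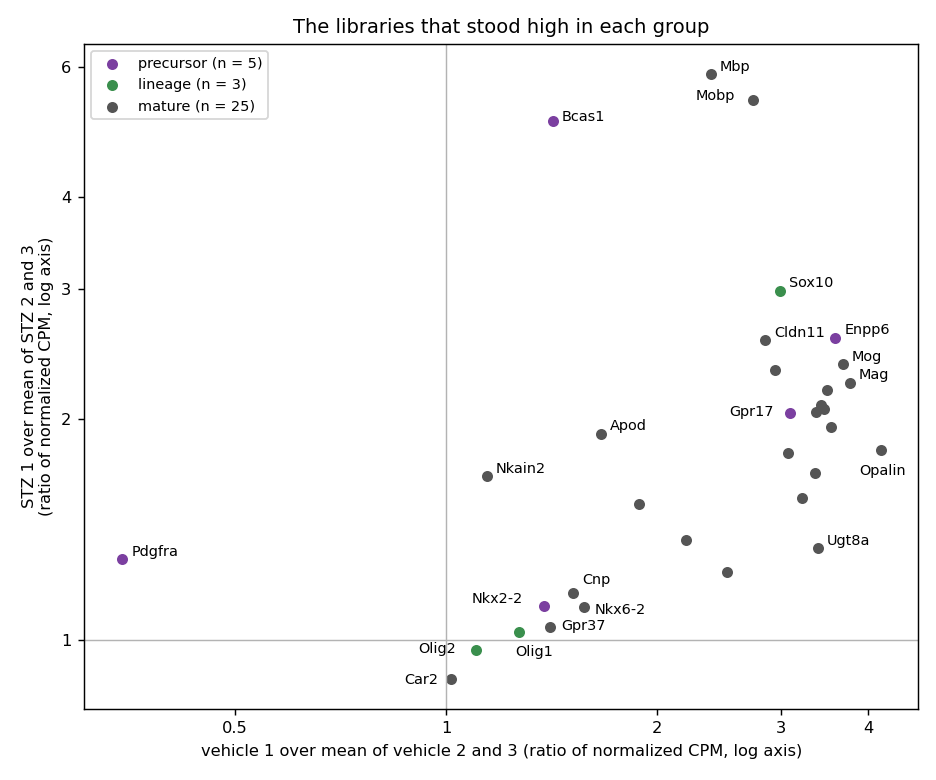
Each gene by how far vehicle 1 stood above the mean of vehicle 2 and 3 (horizontal) and STZ 1 above the mean of STZ 2 and 3 (vertical), as ratios of normalized CPM on log axes, coloured by stage; grey lines mark a ratio of 1. Most mature genes lie near 3 on the horizontal and 2 on the vertical axis, Mbp, Mobp and Bcas1 lie above 5 on the vertical axis, and Olig1, Olig2, Car2, Gpr37 and Nkx2-2 lie below 1.5 on both.

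Compared over all genes, no gene of the list passed the test between STZ and vehicle. None of the 33 passed an adjusted p under 0.05 with a fold change over 1.5, in edgeR's quasi-likelihood test (0.0224% of tested genes did, 5 of 22337) or in DESeq2 (1.05%, 234 of 22335). The smallest adjusted p among them was 0.311 in edgeR (Olig2) and 0.0956 in DESeq2 (Gpr37). At an unadjusted p under 0.05, edgeR gave 4 of the 33 (11.3% of all tested genes), namely 1 higher in STZ, Bcas1 (5.63% of all), and 3 lower, Olig1, Olig2 and Gpr37 (5.65% of all), and DESeq2 gave 5 (10.3% of all). The groups did not overlap for 3 genes, Olig1, Olig2 and Gpr37, all lower in STZ (9.85% of all tested genes were lower without overlap), and for none in the other direction (8.64%). The edgeR total of 4 and the 3 genes lower without overlap were near these background shares. No gene was higher without overlap, and the split by direction was not tested against the background.

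The direction of the list depended on vehicle 1. With all 6 samples 22 of the 33 genes were lower and 11 higher in STZ, with a median log2 fold change of -0.23 against 0.01 over all tested genes. The medians were 0.03 for the 5 precursor genes, -0.32 for the 3 lineage factors and -0.23 for the 25 mature genes. Without vehicle 1, 25 genes were higher and the median was 0.37 (0.42 for the mature genes). In that fit 11 genes had an unadjusted p under 0.05 in edgeR (10.3% of all tested genes). Of these, 8 were higher in STZ, Bcas1, Mbp, Mobp, Cnp, Nkx6-2, Mal, Tspan2 and Ppp1r14a (4.5% of all), and 3 were lower, Olig1, Olig2 and Gpr37 (5.85% of all). Again none passed the threshold (smallest adjusted p in edgeR 0.293). Without STZ 1, 27 genes were lower and the median was -0.48. Mbp, Mobp and Bcas1 remained higher whichever of the 6 samples was left out. Olig1, Olig2 and Gpr37 remained lower, but their groups did not overlap, so leaving out 1 sample could not reverse their direction.

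**Figure D5:**
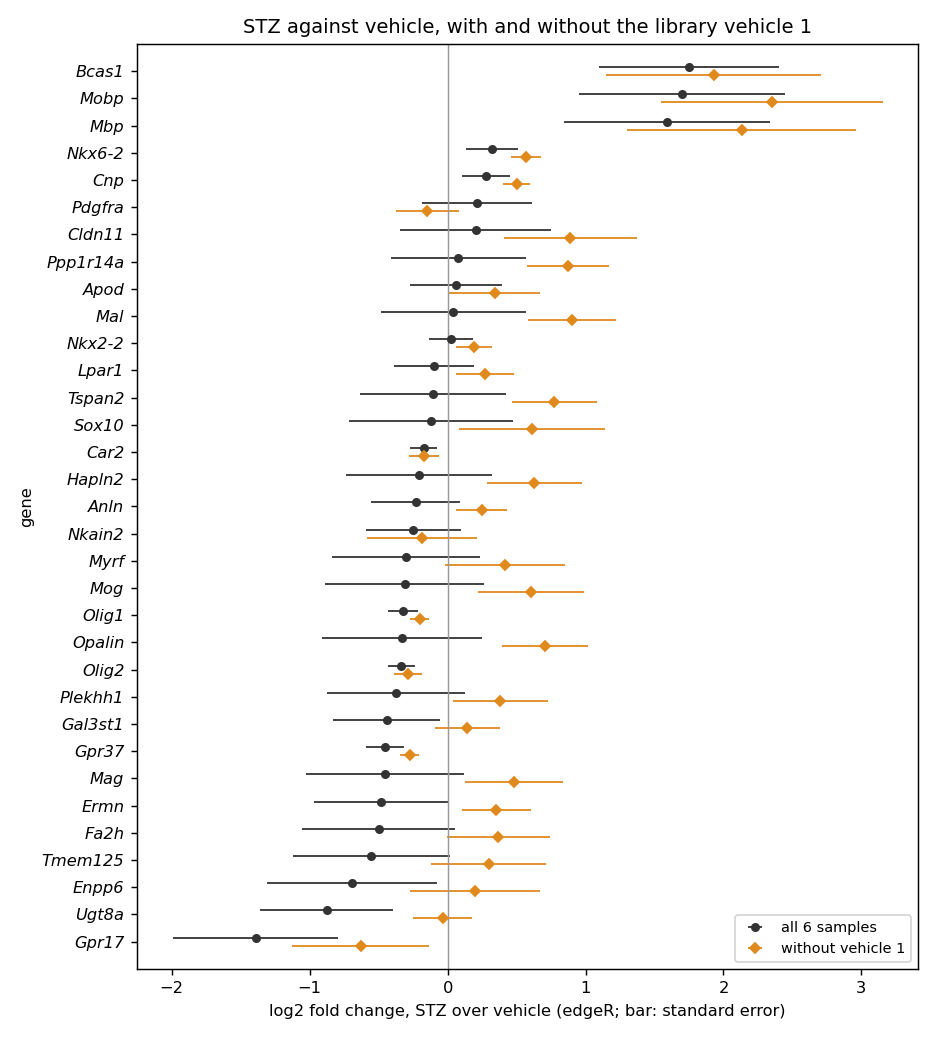
Log2 fold change of STZ over vehicle for each gene with its standard error, from edgeR on all 6 samples (black circles) and without vehicle 1 (orange diamonds). The median moves from -0.23 to 0.37, and Mbp, Mobp and Bcas1 stay highest in both fits. Olig1, Olig2 and Gpr37 lie below 0 in both, which leaving out 1 sample could not change because their groups did not overlap.

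The balance of mature to precursor genes did not separate the groups. The summed TPM of the 25 mature genes over that of the 5 precursor genes was 142, 114 and 101 in vehicle (119 ± 20.8, SD, n = 3) and 72.3, 114 and 106 in STZ samples (97.5 ± 22.3, SD, n = 3). The low value of STZ 1 went with Bcas1, which made up 39.0 of its 54.0 TPM of precursor genes. Car2 carried much of the numerator, and without it the ratio was 64.6 in vehicle and 60.5 in STZ samples. With only the genes not known from other brain cells it was 76.8, 47.1 and 43.1 in vehicle and 53.6, 59.6 and 56.3 in STZ samples.

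Another list, of 60 other oligodendrocyte genes, 59 of them counted in every sample, was again highest in vehicle 1 for most genes. These were 42 in all (22.8% of all tested genes were highest there). No gene of it passed in edgeR (0.0224% of all tested genes did) and 2 did in DESeq2 (1.05% of all), both lower in STZ. These were Klk6, a myelencephalon-specific protease, and Padi2, which citrullinates myelin basic protein. Chst2 (DESeq2 adjusted p = 7.83e-05) and Cryab (DESeq2 adjusted p = 0.0173) fell short only of the fold threshold. Their edgeR log2 fold changes were -0.55 and -0.52. At an unadjusted p under 0.05 edgeR gave 10 genes lower (5.65% of all tested genes) and 0 higher (5.63% of all). Among the 10 were Chst2, Cryab, Ptprz1 and Padi2, which other brain cells also use. The median log2 fold change of the list was -0.13, or 0.06 without vehicle 1. Enpp2, which the choroid plexus also makes, was the highest of that list with a mean of 4724 TPM, and Cryab, Ptprz1, Chst2 and Sox8, the next by stage, are known from other brain cells too.

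Markers of other cell types moved with the groups or with the 2 libraries in part, and their share in the results above was not tested. The 8 endothelial markers summed to 41.9 to 136 TPM in vehicle and 119 to 241 TPM in STZ samples. All 8 were highest in STZ 1 (18.9% of all tested genes were). At an unadjusted p under 0.05 in edgeR 7 were higher in STZ (5.63% of all), and 1 passed the threshold in DESeq2 (1.05% of all). The 8 mural markers summed to 54.2 to 66.0 and 85.3 to 112 TPM, and 4 of them passed in DESeq2 (1.05% of all tested genes did). The 8 perivascular fibroblast markers, 2 of them members of the list, summed to 123 to 184 and 96.4 to 218 TPM. Most of this sum was Apod, a member of the list, with 160 of 184 TPM in vehicle 1 and 178 of 218 TPM in STZ 1. The 9 neuronal markers summed to 63.1 to 119 and 90.6 to 128 TPM. Of these, Tubb3 had 31.4 to 69.0 TPM and Snap25 9.22 to 16.7 TPM over the 6 samples. Rbfox3 was at most 0.782 TPM in any sample and Slc17a7 was listed at 0 in vehicle 3. Tubb3 was named after its values were seen. The 8 markers of dividing cells, Anln among them, summed to 49.4 to 73.0 and 82.5 to 86.9 TPM. The 7 Schwann cell markers summed to 31.0 to 44.5 and 31.2 to 36.9 TPM.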

How the data were processed

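RNA sequencing of 6 pools of sorted tdTomato-positive astrocytes, 3 vehicle and 3 STZ, was analyzed, with group and replicate of each sample read from its labels. Per the submitters' processing notes, reads were prepared with bcl2fastq 2.20.0 and Trimmomatic 0.38, aligned to mm10 with HISAT2 2.1.0 and SAMtools 1.9, and quantified with StringTie 2.1.3b. The deposited count columns hold whole-number reads per gene without normalization. TPM, too, was computed by the authors, from the same reads, per transcript length and library. The FPKM values of the authors were used only as an alternative to TPM. Every measurement column belonged to a mapped sample.

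Counts of the 22337 genes with a count above 0 in all 6 samples, the study's own filter, entered edgeR 4.0.16 under R 4.3.3 (normalization by TMM, quasi-likelihood test, two-sided, Benjamini-Hochberg over all genes tested, group as the only factor). Genes were called at a fold change over 1.5 with an adjusted p under 0.05. The study used DESeq2, run here as an alternative (1.42.0). Other alternatives were filterByExpr, no low-count filter, edgeR with the size factors of DESeq2, the replicate number as a block, limma 3.58.1 on log2(TPM + 1) and log2(TPM + 0.1), FPKM, other choices of members, and leaving out each sample in turn. The script was tested on simulated data. Tables were made in Python 3.11.15 with pandas 2.3.3 and numpy 2.4.6.

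The members and the lists of other genes were chosen with earlier results of these data known. All 33 members are named. Of the other lists, those past a threshold, the 3 with the highest mean TPM per stage and fixed defining markers were eligible to be named, and some of these genes are not reported here. Precursor, lineage and mature stages, and which genes other brain cells also use, were set from textbook knowledge. The total of 52529048 to 58749115 counts per sample makes counting error small for all but the lowest genes, and the floor of 3 counts covers counting error only. Genes were placed on GRCm38 through the NCBI gene number, which matched for all 33, and 16 overlapped another annotated gene. Promoter windows and gene positions came from RefSeq (GRCm38.p6).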

Additional observations from a re-analysis of the deposited data

How the results depend on the processing

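None of the 33 genes passed the threshold in any of the 14 settings of the test. Over all genes the 5 calls of edgeR became 234 with DESeq2, 0 with the replicate block, 0 with limma at either pseudocount, and 0 to 1 when a sample was left out; fewer samples left fewer degrees of freedom. Members at an unadjusted p under 0.05, a count whose alternative settings were added after seeing the data, went from 4 to 8 with the replicate block (8.03% of all genes), to 2 and 1 with limma on log2(TPM + 1) and log2(TPM + 0.1), and to between 3 and 11 when a sample was left out, with 11 reached without vehicle 1. Same-numbered samples did not deviate together over all genes (correlations of -0.10, -0.16 and -0.18), so the numbers were not taken to pair the samples.

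The ratio of mature to precursor TPM moved to 55.7 (vehicle) and 56.5 (STZ) with only genes not known from other brain cells, and to 64.6 and 60.5 without Car2. The direction of Tspan2 reversed with the replicate block (0.091) and with limma (0.085 and 0.11). The groups of Olig1, Olig2 and Gpr37 did not overlap, so leaving out 1 sample could not reverse their direction. Of the 33 genes, 12 kept their direction in every setting. The others reversed when a sample was left out, with ranges of log2 fold change of Pdgfra (-0.15 to 0.45), Nkx2-2 (-0.090 to 0.19), Enpp6 (-1.30 to 0.20), Sox10 (-0.85 to 0.61), Myrf (-0.83 to 0.42), Mog (-0.85 to 0.61), Mag (-0.95 to 0.48), Mal (-0.39 to 0.902), Cldn11 (-0.40 to 0.89), Opalin (-0.70 to 0.70), Tspan2 (-0.502 to 0.77), Ermn (-0.82 to 0.35), Anln (-0.44 to 0.25), Ppp1r14a (-0.24 to 0.87), Plekhh1 (-0.73 to 0.38), Hapln2 (-0.64 to 0.63), Tmem125 (-1.0 to 0.30), Fa2h (-0.98 to 0.37), Gal3st1 (-0.69 to 0.14), Lpar1 (-0.33 to 0.27) and Apod (-0.32 to 0.34); 16 of the reversals came without vehicle 1. Why single pools move the values was not tested. Depth bears most on Gpr17, which rested on as few as 17 counts.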

Other observations

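A scan for genes that 1 library alone held high was added after the values of Mbp, Mobp and Bcas1 were seen. It covered 16252 genes with counts in every sample and a mean of at least 1 normalized CPM. In STZ 1, 3 genes exceeded the next highest sample at least 3-fold, and these were Bcas1, Mbp and Mobp. Other samples also had genes at 3-fold, 2 in vehicle 3, 1 in STZ 2 and 2 in STZ 3. The largest ratios of the scan were those of Usp44 (17.4-fold) and Hebp1 (5.34-fold), both in STZ 3. At 2-fold, STZ 2 had 13 genes. The next in STZ 1 was Kif5a, a kinesin motor of axons, at 2.71-fold (33.3 against 9.35 to 12.3 normalized CPM), and 14 genes reached 2-fold there. In vehicle 1, 8 genes reached 2-fold, and 5 of them were oligodendrocyte genes, among them the galactosylceramide synthase gene Ugt8a (2.89-fold), the protease gene Klk6 (2.38-fold) and the gap junction gene Gjb1 (2.22-fold). At 1.5-fold, vehicle 1 had 63 genes with 18 oligodendrocyte genes among them, STZ 1 had 155 with 3, and the other 4 samples had none of the listed oligodendrocyte genes. The share of listed oligodendrocyte genes among the 16252 genes was not counted.

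Klk6 was at 13.1, 4.20 and 5.50 normalized CPM in vehicle and 2.77, 1.70 and 2.38 in STZ samples. Every STZ sample lay below every vehicle sample, with a log2 fold change of -1.73 (standard error 0.44, edgeR adjusted p = 0.288, DESeq2 adjusted p = 0.00134), and -1.09 without vehicle 1. Padi2 was at 100.3, 80.3 and 77 in vehicle and 50.1, 55.4 and 63.2 in STZ samples, also without overlap, with a log2 fold change of -0.61 (standard error 0.13, edgeR adjusted p = 0.218, DESeq2 adjusted p = 0.00558), and -0.49 without vehicle 1, which is under the 1.5-fold threshold. Padi2 is also made by astrocytes, and these genes were named after their values were seen.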
